A study of Mus musculus with 4 samples.

Results

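The forkhead genes encode transcription factors that share the winged-helix DNA-binding domain called the forkhead box. Members were all genes whose symbol in the platform annotation was Fox followed by a letter and a number, other than Foxm1, with probe sets annotated to that symbol alone. They came to 36 of the 18193 genes represented on the arrays, measured by 78 probe sets. Each gene was represented by its brightest probe set over the 4 arrays, and 20 of the 36 had more than 1 probe set. All arrays carried total RNA of C3H10T1/2 cells, a mouse line labelled as mesenchymal stem cells and grown under standard conditions. The control group was 2 arrays of cells without treatment. The BMP3 group was 2 arrays of cells exposed for 6 hours to recombinant human BMP3 at 100 ng/ml. The labels call the arrays of a group biological replicates of this single line without saying how they were separated. Each p-value sets the difference between the groups against the spread of arrays within them, so it may not cover other lines or cultures.

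Forkhead factors are grouped into lettered classes by their DNA-binding domain. Class O members are held in the cytoplasm when growth factors activate the kinase AKT and enter the nucleus when that signal falls. Class C, D and F members are known for patterning mesoderm and its mesenchyme, class P members mostly repress transcription as dimers, and class K members are nuclear regulators of autophagy and glucose use. BMP3 is a secreted TGF-beta superfamily member known as an antagonist of other BMPs in bone.

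Forkhead genes were divided by level into a measured set and a dim set. Their levels here are log2 intensities as deposited, and a mean of 6 over the 4 arrays was used as the level of a measured gene because the table carries no detection calls. By this level 17 of 36 genes (47.2%) were measured, against 9185 of all 18193 genes, so the share was near that of all genes. None of 43 olfactory receptor probe sets, which stand for genes not thought to be active in such cells, reached it. Their median was 2.14 and their 95th percentile 2.99. Foxp4 was just above the level at a mean of 6.21, with 5.92 on control replicate 1. The next member above was Foxd2 at 8.12. Foxh1, which encodes a partner of SMAD2 in nodal signalling, was the nearest below at 4.89.

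**Figure D1:**
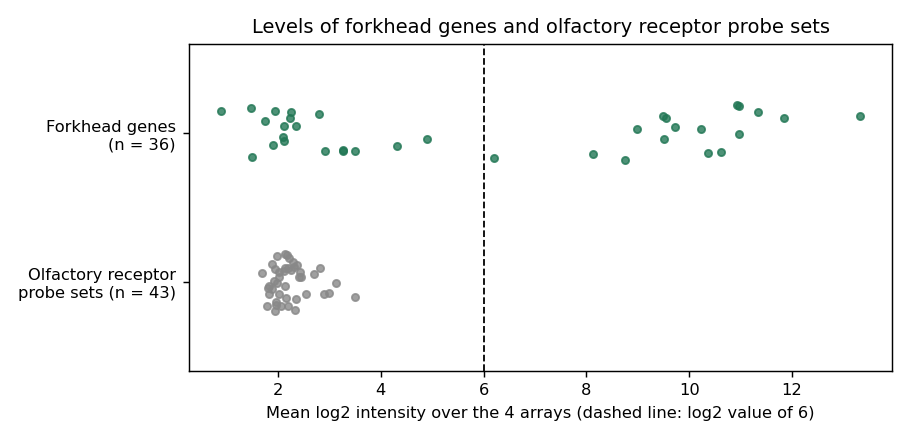
Mean log2 intensity over the 4 arrays (x axis) for the 36 forkhead genes, 1 point each, and for 43 olfactory receptor probe sets, with the level of 6 as a dashed line and points spread vertically for legibility. The 17 measured forkhead genes lie right of the line, and all olfactory receptor probe sets lie left of it.

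The 19 dim members averaged 0.88 to 4.89 and reached 6 on 0 arrays. They included the liver and gut pioneer factor genes Foxa1, Foxa2 and Foxa3, Foxp3 of regulatory T cells, Foxn1 of thymic epithelium, Foxe3 of the lens, Foxd3 of the neural crest and Foxj1, the regulator of motile cilia. The others were Foxb1, Foxb2, Foxd4, Foxf1, Foxh1, Foxi1, Foxl1, Foxl2, Foxn4, Foxq1 and Foxs1. Of the 19, 14 were at or below the 95th percentile of olfactory receptor probe sets. Foxf1, a gene of lung and gut mesenchyme, read 5.05 and 4.42 in the controls and 4.49 and 3.33 with BMP3, so its groups overlapped. Foxs1 read 2.45, 2.47 and 2.56 in control replicates 1 and 2 and BMP3 replicate 1, and 5.54 in BMP3 replicate 2, so a single array stood apart. The smallest unadjusted p of a dim member was 0.21.

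The labelled cell type was checked on marker lists. Of 13 mesenchymal markers, 12 averaged 6 or more, among them Col1a1, Pdgfra, Twist1 and Prrx1, while Nt5e, which encodes the surface enzyme CD73, lay at or below the olfactory receptor percentile. Of blood, skeletal muscle, and liver and gut markers, 0 of 9, 0 of 10 and 0 of 9 reached 6, and Ptprc, Myod1 and Alb lay at or below that percentile. Between that percentile and 6 lay the blood markers Cd68, Adgre1, Csf1r and Laptm5. The muscle marker Myf5 and the liver and gut markers Afp and Hnf4a lay there too. A mean of 6 was reached by 1 of 12 epithelial (Epcam), 3 of 10 endothelial (Flt1, Tek and Egfl7) and 2 of 9 neural markers (Nes and Map2). The epithelial markers Cdh1 and Krt5 and the neural markers Sox2, Tubb3, Olig2 and Snap25 lay between the percentile and 6. The epithelial list had a summed log2 level of 9.59 and 9.78 in the controls and of 9.84 and 9.72 with BMP3, the endothelial list 9.58 and 9.62 against 9.08 and 9.66, and the neural list 11.10 and 11.25 against 10.62 and 10.58. The blood list summed to 6.40 and 6.39 against 6.43 and 6.55, the muscle list to 5.93 and 5.97 against 5.94 and 5.90, and the liver and gut list to 5.75 and 5.83 against 5.78 and 5.74. The cells' own 18S ribosomal RNA read 11.41 and 10.50 in the controls and 8.99 and 9.90 with BMP3. Outside the cell transcripts, the poly-A spike-in Dap read 10.39 and 9.86 in the controls and 9.13 and 8.85 with BMP3. The other poly-A spike-ins were lower on both BMP3 arrays too, with Phe at 8.03 and 7.07 against 6.52 and 6.57, Lys at 7.45 and 6.48 against 6.11 and 6.37, and Thr at 6.22 and 5.59 against 5.43 and 5.43. Among the markers of other cell types, the endothelial gene Tek had a log2 difference of -2.62 ± 0.21 and Flt1 of 1.16 ± 0.47, and the neural gene Map2 -0.79 ± 0.08 and Nes 1.33 ± 0.66. The endothelial list had 2 higher and 8 lower members and the neural list 7 higher and 2 lower, but most members of both were dim. Among those averaging 6 or more, 1 endothelial marker was higher and 2 lower, and 1 neural marker was higher and 1 lower. The values of Tek, Flt1, Map2, Nes, the spike-ins and 18S did not overlap between the groups. Their part in the differences given here was not tested.

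The comparison of BMP3 with control asked which forkhead genes differ after the treatment. No member passed limma's adjusted p of 0.05 over all 45037 probe sets (smallest adjusted p = 0.339), and neither did any probe set of the array (0% called). At an unadjusted p under 0.05 there were 4 members, Foxp2, Foxn3, Foxd1 and Foxo4, and each was lower in the BMP3 arrays. They were 11.1% of the 36 members against 9.8% of all genes, which is near the background. Among genes averaging 6 or more they were 4 of 17 (23.5%) against 18.2% of such genes in either direction, 9.87% higher and 8.33% lower. With at least a 1.5-fold difference as well, 3 of 17 were lower (Foxp2, Foxn3 and Foxd1) and 0 higher, against 2.83% of genes of that level called lower and 2% called higher. That count was 1 without control replicate 2, where Foxp2 alone was left. Foxs1 was called higher when BMP3 replicate 1 was dropped, and Foxc2 when BMP3 replicate 2 was. The 17 members split into 8 higher and 9 lower with a median log2 difference of -0.01 (-0.14 to -0.02 with single arrays dropped), against 0.02 for all genes averaging 6 or more, so the measured members as a group had no common direction. The groups did not overlap for 9 of the 17 (52.9%), against 47.8% of genes of that level. Differences are log2 values of BMP3 minus control with their standard error, and a bulk array cannot tell fewer transcripts per cell from fewer cells that carry them.

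**Figure D2:**
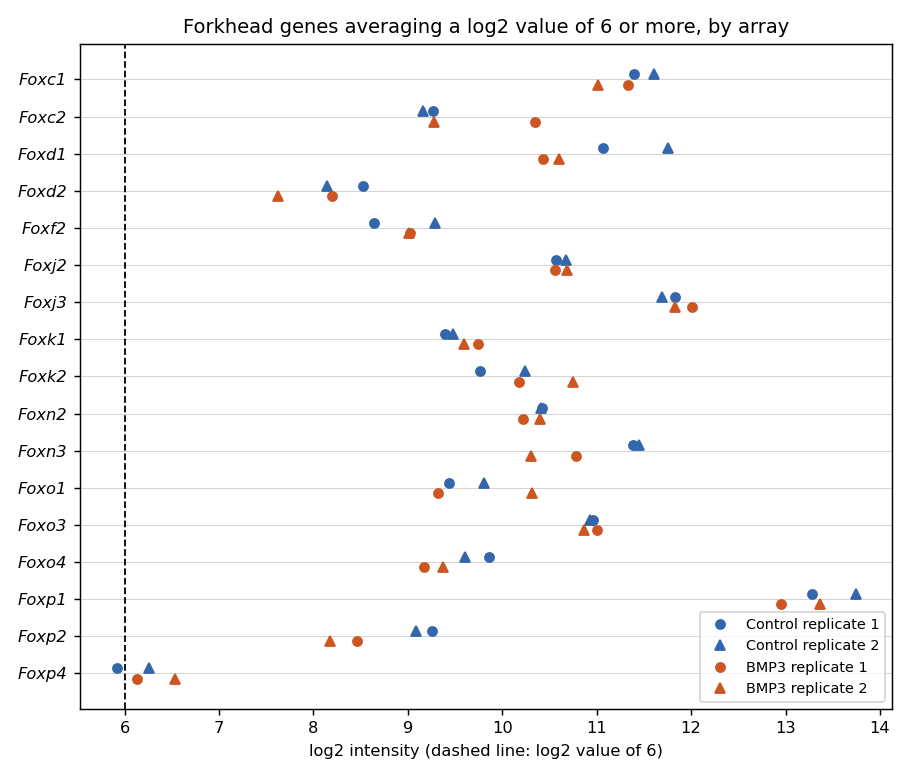
Log2 intensity (x axis) on each array for the 17 forkhead genes averaging 6 or more, in alphabetical order, with control arrays in blue and BMP3 arrays in orange, circles for replicate 1 and triangles for replicate 2. The orange points of Foxp2, Foxn3, Foxd1 and Foxo4 lie left of both blue points, while those of Foxo3 and Foxj2 lie on either side of the blue pair.

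Class P held the member with the smallest p. Foxp2, a repressor known from lung, muscle and speech circuit development, read 9.26 and 9.09 in the controls and 8.46 and 8.17 with BMP3. Both BMP3 values lay below both control values. The difference was -0.85 ± 0.14, a 1.81-fold lower level (95% confidence interval -1.28 to -0.43, limma unadjusted p = 0.00704, adjusted p = 0.339). Its unadjusted p stayed under 0.05 in 11 of 11 alternative analyses (0.00119 to 0.0407), which include leaving out each array. Foxp2 had 3 probe sets averaging 6 or more, and these gave -0.70, -0.85 and -1.60, each with an unadjusted p under 0.05. Its remaining 3 probe sets were dim. Probe sets of 1 gene read the same RNA of the same arrays and are not replicates.

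Foxp1, its close relative and a regulator of lymphocyte, heart and mesenchymal cell fates, read 13.28 and 13.74 in the controls and 12.95 and 13.37 with BMP3. The groups overlapped, and replicate 2 was higher than replicate 1 in each, by 0.46 in control and 0.42 in BMP3 arrays. The difference was -0.35 ± 0.25 (95% interval -1.12 to 0.41). All 8 probe sets of Foxp1 averaged 6 or more, and 7 of them were lower in BMP3 arrays, from -1.02 to 0.06, with 0 of the 8 at an unadjusted p under 0.05. Foxp4, which is known from lung and gut epithelium, read 5.92 and 6.26 in the controls and 6.13 and 6.54 with BMP3. Its groups overlapped too, with a difference of 0.25 ± 0.21.

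Class N gave the next smallest p. Foxn3, a checkpoint-linked repressor, read 11.38 and 11.44 in the controls and 10.78 and 10.30 with BMP3, so the groups were apart while the BMP3 arrays differed more from each other than the controls did. The difference was -0.87 ± 0.19, a 1.83-fold lower level (95% interval -1.47 to -0.27, limma unadjusted p = 0.0186, adjusted p = 0.438). Its 3 probe sets averaging 6 or more gave -0.84, -0.87 and -1.07, each with an unadjusted p under 0.05. Without control replicate 1 or 2 the unadjusted p was 0.0766 and 0.0878. Foxn2, a related gene, read 10.43 and 10.41 in the controls and 10.22 and 10.40 with BMP3, a difference of -0.11 ± 0.08 (95% interval -0.35 to 0.13).

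**Figure D3:**
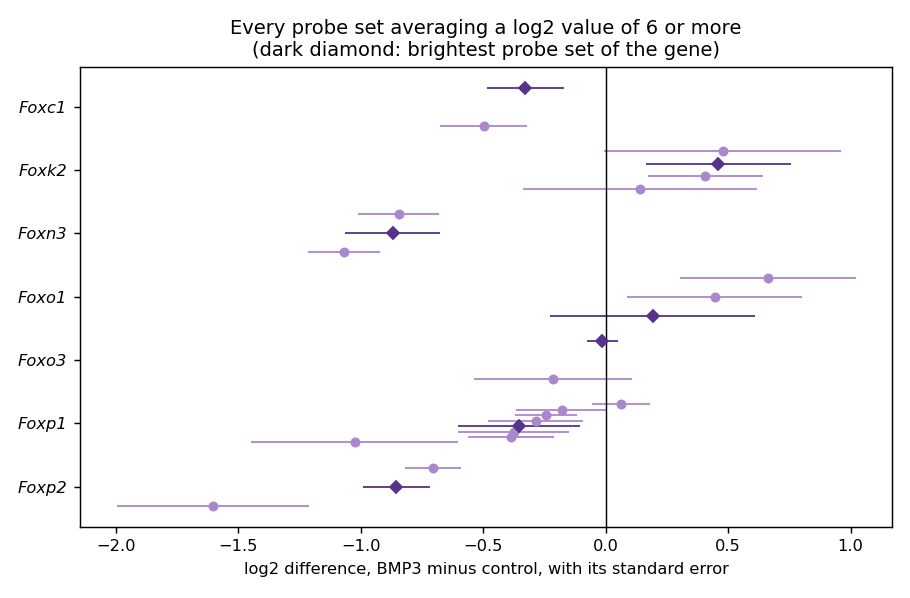
Log2 difference, BMP3 minus control, with its standard error (x axis) for every probe set averaging 6 or more of the 7 forkhead genes with more than 1 such probe set. All 3 probe sets of Foxn3 and of Foxp2 lie left of 0, the 4 of Foxk2 and the 3 of Foxo1 lie right of it, and Foxp1 has 7 of 8 on the left.

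Among the mesodermal classes, 1 of 4 class D genes had an unadjusted p under 0.05. This was Foxd1, known as a gene of the stromal progenitors of the kidney. It read 11.07 and 11.76 in the controls and 10.43 and 10.60 with BMP3. The BMP3 arrays were both lower, although the 2 controls lay farther apart than the nearest control and BMP3 values did. The difference was -0.90 ± 0.28, a 1.86-fold lower level (95% interval -1.77 to -0.03, limma unadjusted p = 0.0457, adjusted p = 0.576). Dropping control replicate 2 made it -0.56 and dropping control replicate 1 made it -1.24. Its unadjusted p became 0.158 or 0.116 when BMP3 replicate 1 or 2 was dropped, and it stayed under 0.05 in 6 of 11 alternative analyses. Foxd2, expressed in kidney and head mesenchyme, read 8.52 and 8.14 in the controls and 8.20 and 7.63 with BMP3, and the groups overlapped (difference -0.42 ± 0.27). Foxd1 had a single probe set, and the other probe set of Foxd2 was dim.

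The class C genes, which act together in somites, vessels and skeleton, did not share a direction. Foxc1 read 11.39 and 11.61 in the controls and 11.33 and 11.01 with BMP3, a difference of -0.33 ± 0.16 (95% interval -0.81 to 0.16). Its other probe set gave -0.50. Foxc2 read 9.27 and 9.16 in the controls and 10.35 and 9.28 with BMP3, so BMP3 replicate 1 was high and BMP3 replicate 2 was close to the controls. Its difference was 0.60 ± 0.43 and was 0.07 without BMP3 replicate 1. Foxf2, a gene of palate and gut mesenchyme, read 8.65 and 9.29 in the controls and 9.03 and 9.01 with BMP3, so both BMP3 values lay between the controls.

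Promoter letters are shown for Foxn3 and Foxd1, the genes of the lower set for which RefSeq windows were matched, and for 1 window of Foxp1, whose windows carry a short forkhead core. RefSeq sequences on GRCm38.p6 were matched for 24 of the 36 members and 12 of the 17 measured ones (29 windows). Each line gives the 250 bases before a transcript start, 5′ to 3′ on the strand of the gene, with capitals for the motifs searched.
Foxn3 (chr12:99450075-99450324, minus strand): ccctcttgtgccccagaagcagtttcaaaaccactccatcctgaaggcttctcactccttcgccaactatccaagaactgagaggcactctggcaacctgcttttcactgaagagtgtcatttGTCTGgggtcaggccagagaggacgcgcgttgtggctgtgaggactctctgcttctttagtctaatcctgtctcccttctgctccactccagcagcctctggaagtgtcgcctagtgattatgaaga
Foxd1 (chr13:98353995-98354244, plus strand): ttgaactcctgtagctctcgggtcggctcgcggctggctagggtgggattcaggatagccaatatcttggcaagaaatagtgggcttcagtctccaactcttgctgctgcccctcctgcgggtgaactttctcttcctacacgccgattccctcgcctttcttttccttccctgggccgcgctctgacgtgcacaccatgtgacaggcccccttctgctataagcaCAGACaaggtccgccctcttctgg
Foxp1 (chr6:99266516-99266765, minus strand): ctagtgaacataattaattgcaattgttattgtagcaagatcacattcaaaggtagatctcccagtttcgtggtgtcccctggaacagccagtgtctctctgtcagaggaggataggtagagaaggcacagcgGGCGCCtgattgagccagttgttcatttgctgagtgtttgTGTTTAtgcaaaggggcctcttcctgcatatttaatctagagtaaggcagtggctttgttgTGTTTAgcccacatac
The SMAD box, CAGAC or GTCTG, occurs in the Foxn3 window at 127 bases and in the Foxd1 window at 24 bases before the start, counted to the first base of the match. It occurs in 42.2% of all 32851 windows and in 7 of the 29 member windows. The Foxp1 window has the forkhead core TGTTTA at 77 and 16 bases before the start. It also has the GC-rich SMAD element, GGCGCC, at 117 bases. The core, read on either strand, is in 12.0% of all windows and in all 3 Foxp1 windows, which were the only windows of measured members to hold it. The element GGCGCC is in 9.59% of all windows. The longer forkhead element GTAAACA or TGTTTAC contains the core and is in 3.17% of all windows, and 0 of the 14 windows of measured members held it. The palindrome GTCTAGAC, in 0.167% of all windows, was in 0 of the 29. Both strands were searched, and a match is a description of letters only.

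The 3 class O genes represented, whose proteins are targets of insulin and AKT signalling, all averaged 6 or more and did not share a direction. Foxo4 read 9.86 and 9.60 in the controls and 9.17 and 9.38 with BMP3, with both BMP3 values lower. The difference was -0.46 ± 0.13, a 1.37-fold lower level (95% interval -0.87 to -0.04, limma unadjusted p = 0.0384, adjusted p = 0.543). Its unadjusted p stayed under 0.05 in only 2 of 11 alternative analyses, with values from 0.0397 to 0.131. Foxo3 read 10.96 and 10.93 in the controls and 11.00 and 10.86 with BMP3, a difference of -0.01 ± 0.06 whose 95% interval was -0.21 to 0.18. Foxo1 read 9.44 and 9.81 in the controls and 9.32 and 10.31 with BMP3. Replicate 2 was above replicate 1 in both groups, and the difference of 0.19 ± 0.42 was -0.30 without BMP3 replicate 2. The other probe sets of Foxo1 averaging 6 or more gave 0.66 and 0.45.

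Both class K genes had higher means in BMP3 arrays, without an unadjusted p under 0.05 in the main fit, which had no block on the replicate number. Foxk1 read 9.39 and 9.48 in the controls and 9.74 and 9.60 with BMP3, so the groups did not overlap (difference 0.23 ± 0.08, limma unadjusted p = 0.0513, adjusted p = 0.6). That unadjusted p fell under 0.05 in 2 of 11 alternatives, at 0.0132 under median centring and 0.0419 with BMP3 replicate 2 dropped. Foxk2 read 9.77 and 10.24 in the controls and 10.18 and 10.75 with BMP3, which overlapped (difference 0.46 ± 0.30). Its limma unadjusted p of 0.213 fell under 0.05 in 1 of 11 alternatives, the block on the replicate number. That limma fit gave an unadjusted p of 0.00628 and an adjusted p of 0.159, for a pairing that the labels do not state. Within replicate numbers 1 and 2 the Foxk2 difference was 0.41 and 0.51, and its 4 probe sets averaging 6 or more gave 0.14 to 0.48. Of class J, Foxj3 read 11.83 and 11.69 in the controls and 12.01 and 11.83 with BMP3 (difference 0.16 ± 0.09). Foxj2 read 10.56 and 10.68 in the controls and 10.56 and 10.68 with BMP3, a difference of 0.00 ± 0.07 (95% interval -0.23 to 0.23).

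**Figure D4:**
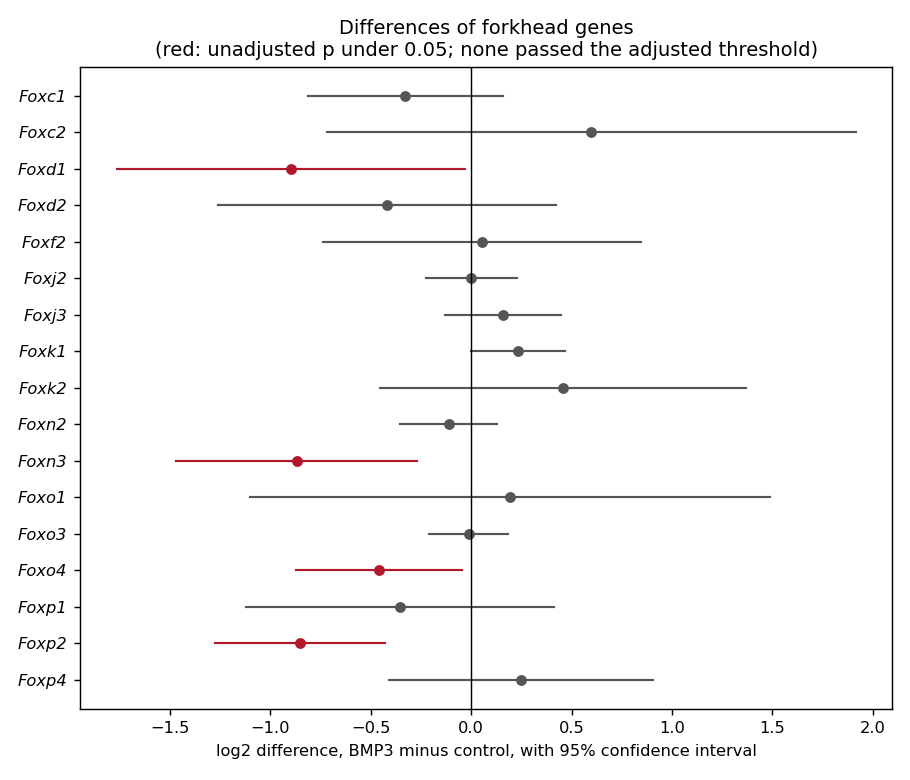
Log2 difference, BMP3 minus control, with its 95% confidence interval (x axis) for the 17 forkhead genes averaging 6 or more, in red where the unadjusted limma p was under 0.05. The intervals of Foxp2, Foxn3, Foxd1 and Foxo4 lie left of 0, and those of the other 13 genes include 0.

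Genes around the class O factors were examined as lists, and 0 members of any list passed the adjusted threshold. Most list members averaged 6 or more, and of all genes at that level 9.87% were higher and 8.33% lower at an unadjusted p under 0.05, with a median difference of 0.02. Over all genes, dim ones included, the shares were 5.28% and 4.52%. Of 24 upstream regulators, all averaging 6 or more, 2 were higher and 1 lower at an unadjusted p under 0.05. The median was 0.02, and 0.04 to 0.12 with single arrays dropped. Igf1r, which encodes a growth factor receptor that activates AKT, had 0.41 ± 0.12, and Usp7, a deubiquitinase of FoxO proteins, 0.30 ± 0.09. Pik3ca, a catalytic subunit of PI3 kinase, had -0.21 ± 0.05 and Xpo1, the nuclear export receptor, -0.31 ± 0.11. Both counts of calls moved with single arrays dropped, which leaves 1 array in a group, and the calls over all genes moved too.

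Of 35 genes known to be induced by FoxO factors, 28 averaged 6 or more, and these split into 9 higher and 19 lower with a median of -0.14. At an unadjusted p under 0.05 there were 3 higher and 3 lower among the 35. Cdkn1b, which encodes the cell cycle inhibitor p27, read 12.82 and 12.63 in the controls and 12.10 and 11.90 with BMP3 (difference -0.72 ± 0.11). Cat, which encodes catalase, had -0.33 ± 0.06, while Ddb1, of DNA repair, had 0.35 ± 0.05 and the prostaglandin receptor gene Ptger4 0.97 ± 0.15. That median moved to -0.36 on dropping control replicate 2, to -0.50 on dropping BMP3 replicate 1 and to 0.00 on dropping BMP3 replicate 2. Both counts of calls among the 35 also moved with single arrays dropped, as did those over all genes. Of 4 genes known to be repressed by FoxO factors, Ccnd1 (cyclin D1) had 0.53 ± 0.11 and Srebf1, a lipid synthesis regulator, 0.41 ± 0.09, both with an unadjusted p under 0.05. Ccnd2 had 0.10 ± 0.31 and Pparg -0.34 ± 1.18. In most drops of a single array, these 2 calls did not both hold. The median of the 4 was 0.25, and it became 0.10 when control replicate 2 was dropped, 0.17 when BMP3 replicate 1 was, 0.37 when control replicate 1 was and 0.47 when BMP3 replicate 2 was.

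**Figure D5:**
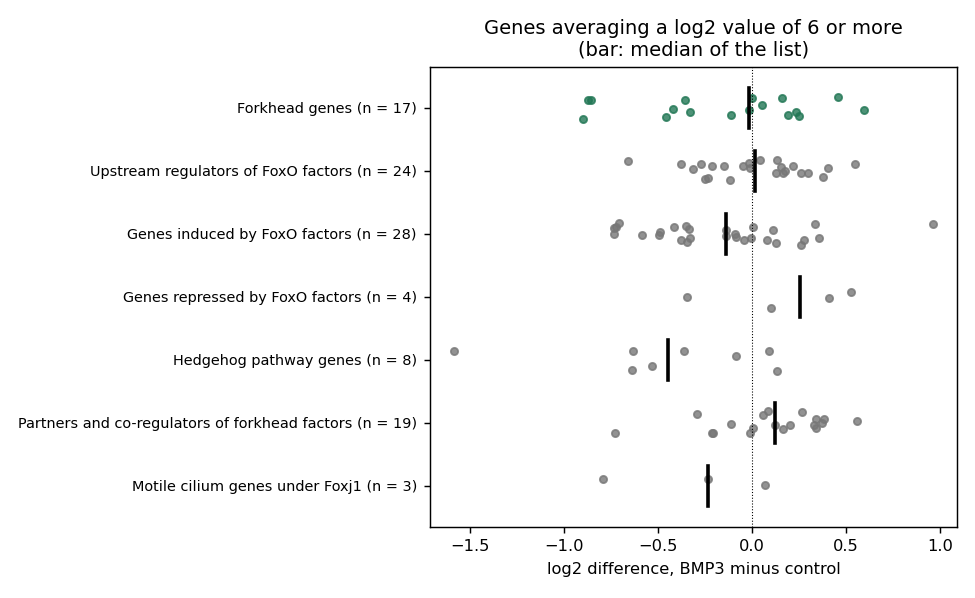
Log2 difference, BMP3 minus control (x axis), of the genes averaging 6 or more in the forkhead family and in 6 lists of related genes, 1 point a gene with the list's median as a bar. The forkhead median lies at -0.01, that of 28 genes induced by FoxO factors at -0.14 and that of 8 Hedgehog pathway genes at -0.45.

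Hedgehog signalling is known to drive Foxf, Foxc and Foxd genes in mesenchyme. Of 13 of its genes, 8 averaged 6 or more, and 6 of these were lower, with a median of -0.45. The ligand genes Shh, Ihh and Dhh were dim, at means of 2.26, 1.81 and 2.34. Gli1 and Hhip were dim too, at 2.07 and 3.16, and the median over all 13 was -0.08. Of all 9185 genes at that level 4286 were lower, with 8.33% called lower. At an unadjusted p under 0.05 there were 2 Hedgehog genes lower, Cdon (-0.64 ± 0.11) and Gli3 (-0.53 ± 0.12), and 0 higher. The co-receptor gene Boc had -1.59 ± 0.56 and the transcription factor gene Gli2 -0.36 ± 0.13. Of 20 partners and co-regulators, 4 were higher and 1 lower at an unadjusted p under 0.05. Their median was 0.10 over all 20 and 0.12 over the 19 averaging 6 or more. Tle1, a Groucho corepressor, had 0.56 ± 0.05, Hcfc1, a chromatin cofactor, 0.34 ± 0.07, and Ctbp1, another corepressor, 0.33 ± 0.10. Asxl2, a subunit of a histone deubiquitinase complex, had -0.73 ± 0.17. Both partner counts moved with single arrays dropped, as the calls over all genes did. The partner median over all 20 became 0.19 on dropping control replicate 1 and 0.05 on dropping BMP3 replicate 1. Of 15 motile cilium genes, known as targets of the dim Foxj1, only Ccdc39, Rfx3 and Tppp3 averaged 6 or more, at -0.79 ± 0.33, -0.23 ± 0.13 and 0.07 ± 0.18, and 0 had an unadjusted p under 0.05. Some drops of a single array gave calls in the cilium list, and the calls over all genes moved under each drop too.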

How the data were processed

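Biotin-labelled RNA was read on Affymetrix 3' arrays, per the labels' protocols. The authors deposited log2 values, 1 for each probe set of an array. That they are log2 was judged from their range (0.59 to 16.94), and folds would change with another base. Partek is named, with no version or step, in the submitters' processing notes. The background correction and normalization steps are not given in these sources.

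Values were used as deposited, without the 64 control probe sets. In the platform annotation 34945 of 45037 probe sets carried 1 symbol, 932 several and 9160 none. The test was two-sided, with lmFit and eBayes of limma 3.58.1 (R 4.3.3, 1.18 prior degrees of freedom), and p-values were adjusted by Benjamini-Hochberg over all probe sets. The fit was tested on simulated data whose noise was independent between arrays, so deviations shared by same-numbered arrays were not covered. Every member was covered, in full where it averaged 6 or more, and lists gave up to 4 members of that level with the smallest unadjusted p. Members and lists were chosen with earlier results of these data known. List genes without a probe set of their own were not analysed here. With 2 arrays a group, their number limits the precision. The alternatives blocked on the replicate number, dropped each array in turn, normalized by quantiles or centred on medians, left out dim probe sets, added an offset of 16 on the linear scale, used a trended robust prior or averaged all probe sets of a gene, with other folds and levels for the counts. Motifs were searched with Python 3.11.15.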

Additional observations from a re-analysis of the deposited data

How the results depend on the processing

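Of the forkhead genes, 0 passed the adjusted threshold under each of the 11 alternative fits, with smallest adjusted p from 0.136 (replicate block) to 0.664 (without control replicate 1). Over all 45037 probe sets, 1265 had a limma unadjusted p under 0.05 and at least 1.5-fold in the main fit. With the replicate number as a block there were 2164, and with the offset of 16 there were 875. Among forkhead genes, the count of 4 at an unadjusted p under 0.05 was 8 under that block and 2 under that offset. With at least 1.5-fold as well, the count of 3 was 0 at a fold of at least 2 and 1 to 4 with single arrays left out. The labels do not say that a replicate number marks a shared day. Same-numbered arrays deviated together from their group means (r = 0.451 across 45037 probe sets and 0.596 across the 17152 averaging 6 or more). Probe sets are not independent, and 2 pairs do not settle the pairing. The 8 genes under the block were Foxp2, Foxn3 and Foxd1, joined by Foxk2 (limma unadjusted p = 0.00628, adjusted p = 0.159), Foxp1, Foxd2, Foxf1 and Foxp4, whose unadjusted values ran up to 0.0277, while Foxo4 had 0.0544. Measured members numbered 17 at a level of 5, 16 at 7, 12 by the mean of all probe sets and 22 above the olfactory receptor percentile. With single arrays left out, differences ran from -0.27 to 0.38 for Foxf2, -0.0605 to 0.0610 for Foxj2, -0.30 to 0.69 for Foxo1 and -0.0806 to 0.0539 for Foxo3. Foxj2 had -0.0075 under quantile normalization and Foxo3 0.0254 under median centring. The other 13 measured members kept their direction in all 11. The cause of these shifts was not tested.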
